A study of Mus musculus with 9 samples.

Results

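The chemokine receptors described here are 9 genes, Ccr2, Ccr4, Ccr6, Ccr7, Ccr8, Ccr9, Cxcr3, Cxcr4 and Cxcr5, out of the 23992 gene symbols of the RNA-seq tables. They were taken by symbol from the receptors through which T cells find their way to tissues, with 1 transcript for each symbol, the one with the most reads over the 9 libraries. Of the 9 genes, 7 passed the filter on low values and were tested among 10702 genes, while Ccr9 and Cxcr5 did not pass it.

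Chemokine receptors are G protein-coupled receptors on the cell surface that bind small secreted proteins, the chemokines, and steer a cell along their gradient through Gi proteins, PI3 kinase and Rac. CCR7 takes T cells into lymph nodes, CXCR4 binds CXCL12 in bone marrow and lymphoid tissue, and CCR2, CCR4, CCR6, CCR8 and CXCR3 direct activated or memory T cells into inflamed tissue, skin and other barrier sites. Regulatory T cells (Tregs), which hold back other immune cells and depend on the cytokine IL-2, use the same receptors to reach the place where they act.

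The libraries came from BALB/c mouse Tregs that carried a Foxp3-linked green fluorescent protein. All 3 groups carried a transduced orthogonal IL-2Rβ (the beta chain of the IL-2 receptor) with a human EGFR tag, so none of them is an untransduced control. Per the treatment protocol label, every group had first grown for 48 hours on beads against CD3 and CD28 in 1000 IU/mL of human IL-2. Magnetic selection for the tag and a night without IL-2 followed (the growth label describes another assay). For the next 4 hours the cells received 2000000 IU/mL ortho IL-2 (a cytokine engineered to act on the engineered receptor), wild-type (WT) IL-2 at 20000 IU/mL or no IL-2, with 3 libraries in each group. The doses of both cytokines are thus not matched. Whether the libraries of 1 group stem from separate cultures or mice is not stated in the labels, and the p-values therefore cover the spread between these libraries alone, which may be technical.

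The libraries held 16581624 to 58182835 reads in genes. A floor of 3 reads equals 0.0516 to 0.181 CPM (counts scaled to a fixed depth) and covers counting error only. All 10 Treg and T cell markers were tested, Foxp3 and Cd4 among them, and their summed level was 10225 to 10555 CPM in ortho IL-2 libraries, 10453 to 10544 CPM in WT IL-2 libraries and 7200 to 7257 CPM in no IL-2 libraries. That difference lay in Il2ra, the high-affinity IL-2 receptor chain, with 4605 to 5040.4 CPM in ortho IL-2 libraries, 4843 to 5131 CPM in WT IL-2 libraries and 1206 to 1224 CPM in no IL-2 libraries. The other markers summed to 5515 to 5620.1 CPM in ortho IL-2 libraries, 5412 to 5611 CPM in WT IL-2 libraries and 5981 to 6032 CPM in no IL-2 libraries. In both comparisons with no IL-2, 3 of the 10 were called higher (Foxp3, Il2ra and Tnfrsf18) and 5 lower (Cd4, Cd3g, Cd5, Ctla4 and Ikzf2). Their median log2 fold changes were -0.20 for ortho IL-2 and -0.17 for WT IL-2. Of all genes, 56.0% were called with ortho IL-2 and 47.9% with WT IL-2. Reads outside the transcripts taken are called reads outside genes below, though they may also lie within genes. They were 29.4% ± 3.64 in ortho IL-2 libraries, 31.7% ± 2.96 in WT IL-2 libraries and 40.5% ± 2.43 in no IL-2 libraries (SD, n = 3 each), so this share moves with the groups. Replicate 3 of ortho IL-2 and replicate 1 of WT IL-2 stood apart from their own groups: the chi-square per degree of freedom over genes, which also grows with depth, was 24.3 to 36.5 in the pairs that held 1 of them and 5.06 to 7.79 in the other pairs within a group.

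Levels below are given as TMM-scaled RPKM, that is CPM per kilobase of transcript after scaling the libraries by the TMM method, so that genes of different length can be set side by side. Counted over members, 6 of the 7 tested differed between ortho IL-2 and no IL-2, 2 higher and 4 lower. The test called 56.0% of all genes in that comparison, 28.5% higher and 27.4% lower. Between WT IL-2 and no IL-2, 5 of 7 differed, 1 higher and 4 lower, where 47.9% of all genes were called, 25.0% higher and 22.9% lower. No member differed between ortho IL-2 and WT IL-2, a comparison that called 0% of all genes. The same 6 and 5 members had libraries that did not overlap, against 66.1% of all genes for ortho IL-2 and 58.8% for WT IL-2, and no member was free of overlap between both cytokines, against 4.65% of all genes. Ortho and WT IL-2 are set against the same no IL-2 libraries, so both comparisons share that part of their error. In bulk RNA, fewer cells that express a gene and less RNA per cell cannot be told apart.

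Among the responses described below, Ccr4 was called higher with both cytokines, and Ccr8 with ortho IL-2 only and narrowly. Cxcr4 was an abundant member with lower levels, and Ccr6 showed no call. The stretches before the annotated starts of these 4 members are shown. Each runs 250 bases up to the RefSeq start in GRCm38.p6, 5′ to 3′ on the gene's own strand, with matches to the searched motifs in capitals. Ccr4 lies at chr9:114496545-114496794 on the minus strand, Ccr8 at chr9:120091883-120092132 on the plus strand, Cxcr4 at chr1:128592300-128592549 on the minus strand and Ccr6 (the first of its 2 RefSeq starts) at chr17:8235793-8236042 on the plus strand.
Ccr4: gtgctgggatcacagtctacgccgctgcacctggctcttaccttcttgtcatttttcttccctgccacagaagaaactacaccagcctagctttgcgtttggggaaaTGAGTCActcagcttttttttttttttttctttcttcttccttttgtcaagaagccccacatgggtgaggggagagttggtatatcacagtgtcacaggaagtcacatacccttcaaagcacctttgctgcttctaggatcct
Ccr8: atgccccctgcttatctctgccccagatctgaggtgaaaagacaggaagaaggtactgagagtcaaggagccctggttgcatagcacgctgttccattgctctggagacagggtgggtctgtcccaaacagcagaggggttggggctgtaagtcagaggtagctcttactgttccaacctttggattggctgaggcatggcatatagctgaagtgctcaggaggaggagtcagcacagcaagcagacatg
Cxcr4: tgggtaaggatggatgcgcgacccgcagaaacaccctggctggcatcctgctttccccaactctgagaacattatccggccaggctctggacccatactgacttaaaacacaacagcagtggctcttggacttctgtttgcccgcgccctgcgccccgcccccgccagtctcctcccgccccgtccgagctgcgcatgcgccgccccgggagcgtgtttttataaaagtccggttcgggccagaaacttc
Ccr6: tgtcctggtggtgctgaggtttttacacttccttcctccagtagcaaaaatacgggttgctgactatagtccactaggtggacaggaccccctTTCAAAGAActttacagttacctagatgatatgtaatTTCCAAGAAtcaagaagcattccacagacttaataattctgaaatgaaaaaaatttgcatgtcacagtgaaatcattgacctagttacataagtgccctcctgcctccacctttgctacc

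The motifs searched, on both strands, were the letters TTCNNNGAA (STAT factors), GTAAACA (FOXO), TGANTCA (AP-1) and TCACACC (T-box). The Ccr4 stretch held 1 AP-1 match, TGAGTCA, whose first base lay 143 bases before the start. In Ccr6 there were 2 STAT matches, TTCAAAGAA and TTCCAAGAA, 157 and 120 bases before the start. Ccr8 and Cxcr4 held none of the letters searched. Of 32851 promoter stretches of the same length, 7.02% held the STAT letters, 3.17% the FOXO letters, 6.75% the AP-1 letters and 3.33% the T-box letters, and a match is no evidence that a factor binds there. Among members with a RefSeq stretch (7 of 9), the Cxcr4 one had the most CpG pairs, 19, and a GC content of 61.2%, against a median of 6 pairs and 52.4% over all stretches, while those of Ccr8 and Ccr6 shown here had 1 pair each. The Ccr4 and Ccr8 stretches overlap annotated exons of their own or other transcripts by 18 and 19 bases.

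Ccr7, the receptor for CCL19 and CCL21 that leads T cells into lymph nodes, showed the largest fold difference of the members tested. Its level was 69.8, 70.0 and 82.1 TMM-scaled RPKM in ortho IL-2 libraries, 76.1, 64.6 and 66.8 in WT IL-2 libraries, and 151, 160.0 and 155 in no IL-2 libraries. Every stimulated library lay below every no IL-2 library, and the ortho and WT IL-2 libraries overlapped. The log2 fold change was -1.07 for ortho IL-2 (SE 0.08, adjusted p = 2.84e-06) and -1.17 for WT IL-2 (SE 0.08, adjusted p = 1.56e-06), or 0.477 times the no IL-2 level with ortho IL-2 and 0.445 times with WT IL-2.

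Cxcr4, the receptor for CXCL12, had the highest mean level of the members in ortho IL-2 and WT IL-2 libraries, and with no IL-2 it stood beside Ccr7 within their spread. It reached 86.0, 91.3 and 94.1 TMM-scaled RPKM in ortho IL-2 libraries, 93.3, 88.4 and 93.3 in WT IL-2 libraries, and 155, 159.9 and 151 in no IL-2 libraries. The stimulated libraries formed 1 narrow range well under the no IL-2 libraries. Cxcr4 fell by 0.78 on the log2 scale with ortho IL-2 (SE 0.05, adjusted p = 8.08e-07) and by 0.76 with WT IL-2 (SE 0.05, adjusted p = 9.76e-07).

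Ccr2, the receptor for CCL2 that brings monocytes and activated T cells into inflamed tissue, was the third of the members that fell with a high level. Its level was 41.1, 44.8 and 38.5 TMM-scaled RPKM in ortho IL-2 libraries, 36.9, 46.5 and 46.9 in WT IL-2 libraries, and 74.9, 72.4 and 73.0 in no IL-2 libraries. Both stimulated groups lay below the no IL-2 libraries without overlap, and they varied more among themselves. The log2 fold change was -0.83 with ortho IL-2 (SE 0.09, adjusted p = 4.43e-05) and -0.76 with WT IL-2 (SE 0.09, adjusted p = 7.99e-05). The 2 libraries that stood apart, replicate 3 of ortho IL-2 and replicate 1 of WT IL-2, held the lowest Ccr2 values of their groups. Without replicate 3 of ortho IL-2 the ortho IL-2 change was -0.77, and without replicate 1 of WT IL-2 the WT IL-2 change was -0.65. Of the Ccr2 transcript, 3.73% of its 50-base windows also occur in other genes, so a small part of its reads could be shared.

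Ccr4, the receptor for CCL17 and CCL22 that marks skin-homing T cells and many Tregs, went the other way. Its level was 34.3, 36.3 and 33.3 TMM-scaled RPKM in ortho IL-2 libraries, 33.1, 36.8 and 34.9 in WT IL-2 libraries, and 23.7, 23.3 and 24.1 in no IL-2 libraries. Each stimulated library was above each no IL-2 library. The rise was 0.55 on the log2 scale with ortho IL-2 (SE 0.05, adjusted p = 1.99e-05) and 0.56 with WT IL-2 (SE 0.05, adjusted p = 1.73e-05), or 1.46 times the no IL-2 level with ortho IL-2 and 1.48 times with WT IL-2.

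**Figure D1:**
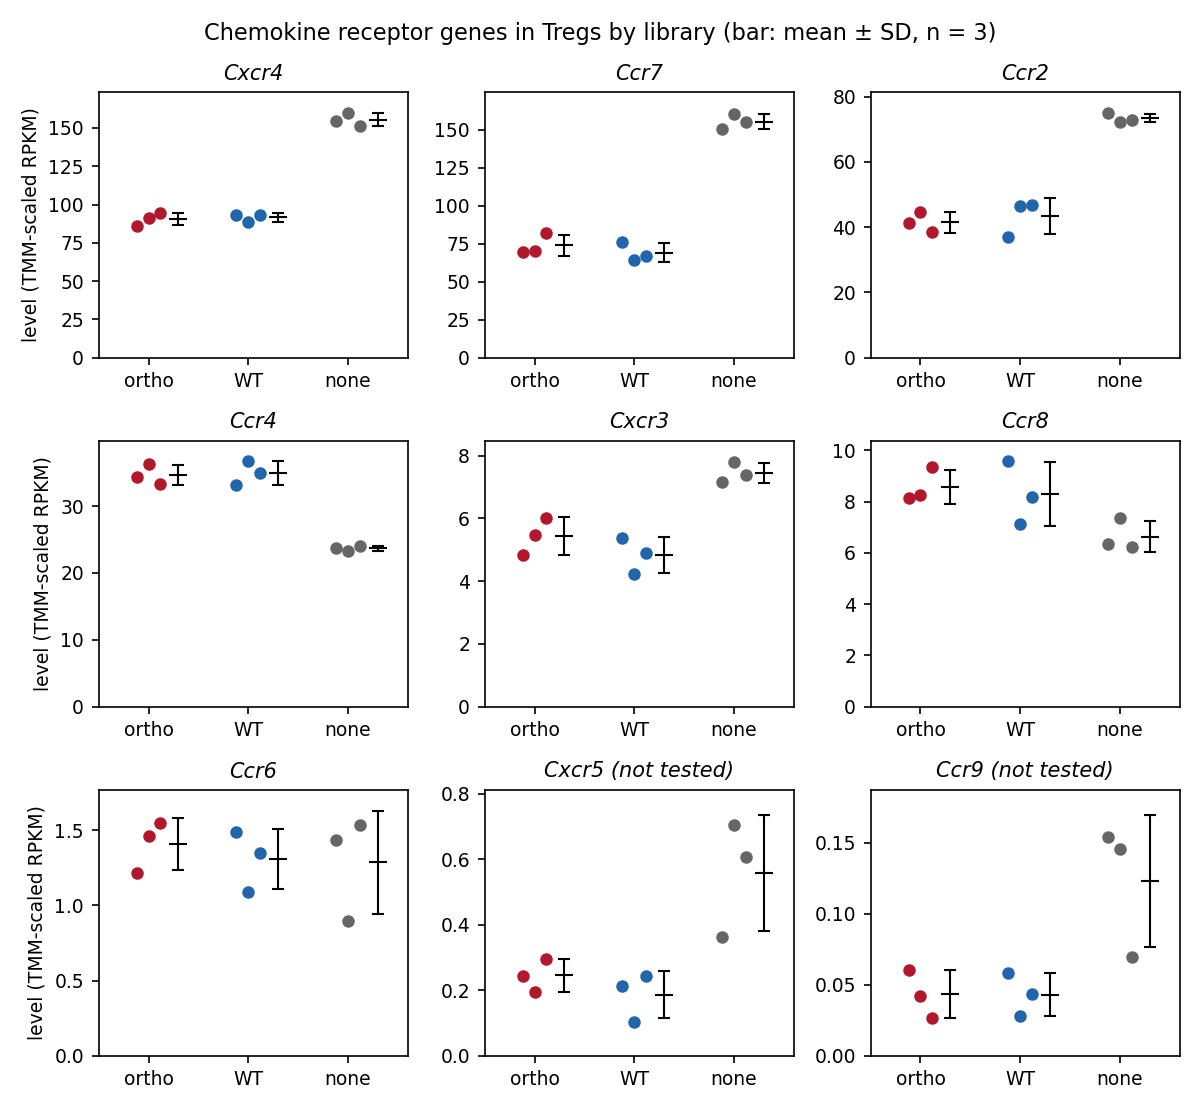
Level of the 9 chemokine receptors in each library, in TMM-scaled RPKM on a linear axis that starts at 0 for each gene. Points are libraries and the bars beside them mean ± SD (n = 3), with ortho IL-2, WT IL-2 and no IL-2 (none) from left to right. Ccr7, Cxcr4, Ccr2 and Cxcr3 lie lower in every stimulated library than in any no IL-2 library, Ccr4 lies higher, and Ccr6 overlaps throughout.

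Cxcr3, the receptor for CXCL9, CXCL10 and CXCL11 that marks Th1-type cells and the Tregs that control them, had a much lower level and fell as well. It stood at 4.82, 5.48 and 6.01 TMM-scaled RPKM in ortho IL-2 libraries, 5.37, 4.22 and 4.90 in WT IL-2 libraries, and 7.16, 7.81 and 7.38 in no IL-2 libraries. No stimulated library reached the lowest no IL-2 library. The log2 fold change was -0.45 with ortho IL-2 (SE 0.11, adjusted p = 0.00805) and -0.62 with WT IL-2 (SE 0.12, adjusted p = 0.00151). Of the 22 alternatives, 4 left the ortho IL-2 change without a call, among them edgeR with the divisor of the deposited RPKM as library size, which gave -0.17 (adjusted p = 0.345).

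Ccr8, the receptor for CCL1 that is found on activated and tissue Tregs, rose with ortho IL-2 only narrowly past the threshold. Its level was 8.13, 8.27 and 9.36 TMM-scaled RPKM in ortho IL-2 libraries, 9.60, 7.12 and 8.19 in WT IL-2 libraries, and 6.33, 7.35 and 6.24 in no IL-2 libraries. The ortho IL-2 libraries were all above the no IL-2 libraries, and replicate 2 of WT IL-2 fell within the no IL-2 range. The log2 fold change was 0.37 with ortho IL-2 (SE 0.13, adjusted p = 0.0299) and 0.32 with WT IL-2 (SE 0.13, adjusted p = 0.0589), the second not past the threshold. Between ortho IL-2 and WT IL-2 the difference was 0.05 (95% interval -0.22 to 0.32), so both cytokines were not shown to differ on Ccr8. The ortho IL-2 call was lost in 7 of 22 alternatives: it was 0.30 without ortho IL-2 replicate 3 (adjusted p = 0.105), 0.33 without no IL-2 replicate 1 (adjusted p = 0.1004) and 0.33 without no IL-2 replicate 3 (adjusted p = 0.0891). Without WT IL-2 replicate 2, the WT IL-2 change of 0.42 was called (adjusted p = 0.0205), while without WT IL-2 replicate 1 it was 0.20 (adjusted p = 0.190).

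Ccr6, the receptor for CCL20 that is shared by Th17 cells and some Tregs, showed no difference past the test. Its level was 1.22, 1.46 and 1.55 TMM-scaled RPKM in ortho IL-2 libraries, 1.49, 1.09 and 1.35 in WT IL-2 libraries, and 1.43, 0.894 and 1.53 in no IL-2 libraries. All groups overlapped. The log2 fold change was 0.15 with ortho IL-2 (95% interval -0.33 to 0.63, adjusted p = 0.565) and 0.05 with WT IL-2 (95% interval -0.44 to 0.53, adjusted p = 0.874). The ortho IL-2 interval holds a change of the size seen for Ccr4, and the WT IL-2 interval ends just short of it. The filter was set on the deposited RPKM, which lie below the TMM-scaled levels. Ccr6 passed it through 3 libraries only, 2 of ortho IL-2 and 1 of WT IL-2, and rested on 37 to 143 reads per library.

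Cxcr5, the receptor for CXCL13 that takes follicular T cells into B cell follicles, and Ccr9, the receptor for CCL25 that takes T cells to the small intestine, were under the filter in every library. Cxcr5 had 24, 11 and 46 reads in ortho IL-2 libraries, 22, 9 and 20 reads in WT IL-2 libraries, and 28, 49 and 26 reads in no IL-2 libraries. On the scaled level it had 0.244, 0.195 and 0.296 TMM-scaled RPKM in ortho IL-2 libraries, 0.214, 0.104 and 0.243 in WT IL-2 libraries, and 0.361, 0.704 and 0.608 in no IL-2 libraries. Every stimulated library was below every no IL-2 library on the scaled level. Ccr9 had 10, 4 and 7 reads in ortho IL-2 libraries, 10, 4 and 6 reads in WT IL-2 libraries, and 20, 17 and 5 reads in no IL-2 libraries, where its level spanned 0.0696 to 0.154 TMM-scaled RPKM. Ccr9 shares exon bases with Gm17200 on its own strand and with Slc6a20a on the other, and Cxcr5 with Bcl9l on the other strand, so their few reads are uncertain.

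**Figure D2:**
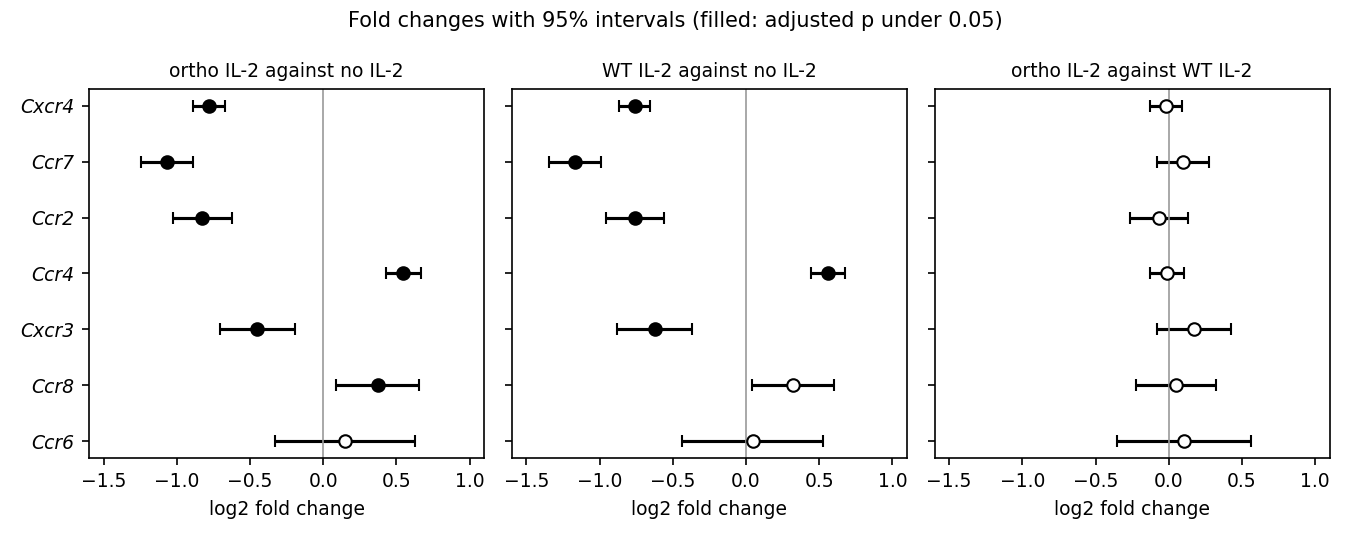
Log2 fold change of the 7 tested receptors with 95% intervals from edgeR, for ortho IL-2 against no IL-2, WT IL-2 against no IL-2 and ortho IL-2 against WT IL-2. Filled points have an adjusted p under 0.05. The intervals of Ccr7, Cxcr4, Ccr2 and Cxcr3 lie below 0 and those of Ccr4 above 0 in both comparisons with no IL-2, while all 7 intervals between the cytokines cross 0.

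Set directly against each other, ortho IL-2 and WT IL-2 gave log2 differences near 0 for the abundant receptors. The difference was -0.02 for Cxcr4 (95% interval -0.13 to 0.09), -0.01 for Ccr4 (-0.13 to 0.10), 0.10 for Ccr7 (-0.08 to 0.27) and -0.07 for Ccr2 (-0.27 to 0.13). The intervals for Cxcr3 (0.17, -0.08 to 0.43) and Ccr6 (0.11, -0.35 to 0.56) were wider and allow differences that these libraries could not show. Over all 10702 genes edgeR called 0 in this comparison, DESeq2 0 and limma 0, with 149 genes (1.39%) at an unadjusted p under 0.05 in edgeR. Without replicate 1 of WT IL-2, 2605 genes had an unadjusted p under 0.05, and again none passed after adjustment.

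By level the members formed a steep ladder. Cxcr4, Ccr7, Ccr2 and Ccr4 together held 93.5 to 96.3% of the summed level of the 9 genes in each library. In ortho IL-2 libraries the order ran from Cxcr4 (90.5 ± 4.11 TMM-scaled RPKM) over Ccr7 (74.0 ± 7.04), Ccr2 (41.5 ± 3.13), Ccr4 (34.6 ± 1.52), Ccr8 (8.58 ± 0.671) and Cxcr3 (5.44 ± 0.599) to Ccr6 (1.41), then Cxcr5 and Ccr9. WT IL-2 libraries had the same order of means. Without IL-2, Ccr7 (155 ± 4.70) and Cxcr4 (155 ± 4.36) did not differ beyond their spread, and Cxcr3 (7.45 ± 0.330) and Ccr8 (6.64 ± 0.613) overlapped, with the Cxcr3 mean the higher of that pair. All these errors are SD with n = 3.

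Summed over the 9 genes, the level was 256 ± 9.83 TMM-scaled RPKM in ortho IL-2 libraries, 254 ± 4.39 in WT IL-2 libraries and 424 ± 7.61 in no IL-2 libraries (SD, n = 3 each). Within that sum the make-up shifted toward Ccr4, which held 13.5% ± 0.851 in ortho IL-2 libraries, 13.8% ± 0.948 in WT IL-2 libraries and 5.59% ± 0.180 in no IL-2 libraries. Ccr7 held 28.8% ± 1.93 in ortho IL-2 libraries, 27.2% ± 2.15 in WT IL-2 libraries and 36.6% ± 0.625 in no IL-2 libraries. Cxcr4 kept close to the sum, with 35.3% in ortho IL-2 libraries, 36.1% in WT IL-2 libraries and 36.6% in no IL-2 libraries. The ratio of Ccr4 to Ccr7 was 0.472 ± 0.0590 in ortho IL-2 libraries, 0.509 ± 0.0687 in WT IL-2 libraries and 0.153 ± 0.00609 in no IL-2 libraries. Of the less abundant pair, Ccr8 over Cxcr3 was 1.58 ± 0.0929 in ortho IL-2 libraries, 1.72 ± 0.0627 in WT IL-2 libraries and 0.891 ± 0.0478 in no IL-2 libraries, so the order of these means turned with IL-2. A ratio within a library does not depend on the scaling between libraries, and these were given no test of their own.

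**Figure D3:**
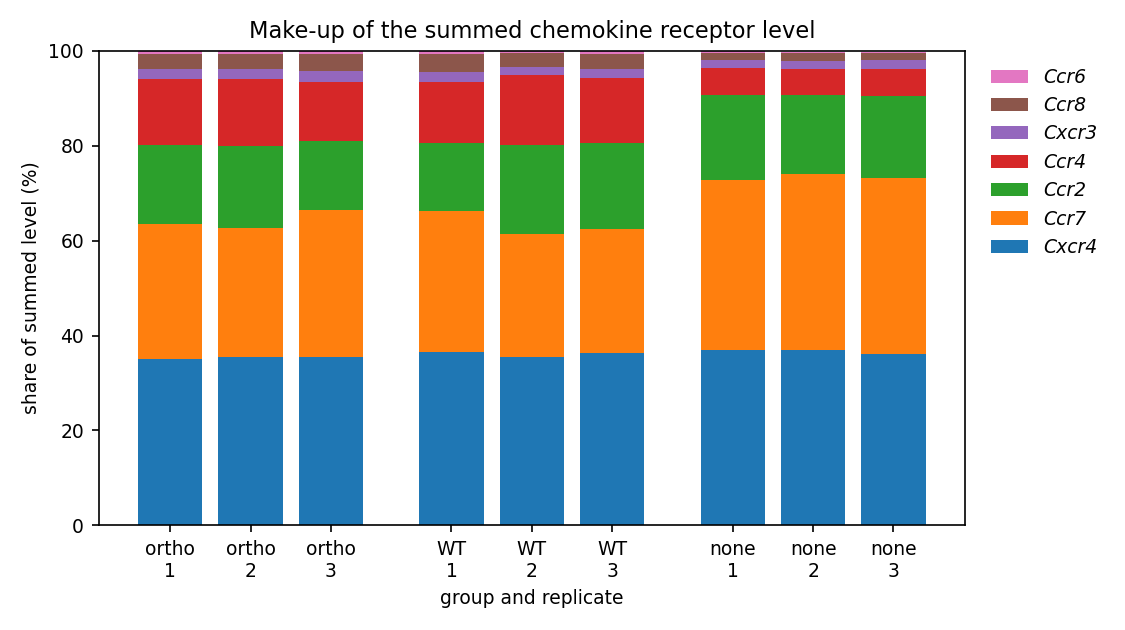
Share of each receptor, in percent, of the summed TMM-scaled RPKM of the 9 genes in each library, with ortho IL-2, WT IL-2 and no IL-2 from left to right. Ccr9 and Cxcr5 are too small to be seen and are left out of the bars. The Ccr4 part is more than 10% of every stimulated library and under 6% of every no IL-2 library.

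Of the 7 tested members, 5 were highest in replicate 3 among ortho IL-2 libraries, and 5 were highest in replicate 1 among WT IL-2 libraries, the libraries that stood apart. For Cxcr4, WT IL-2 replicates 1 and 3 were nearly equal (93.349 and 93.348 TMM-scaled RPKM). Transcripts of different GC content moved apart in these libraries. At the 53.5% GC of Ccr7 the trend over all genes lay 0.14 (log2) above the mean of the 9 libraries in ortho IL-2 replicate 3 and 0.11 above it in WT IL-2 replicate 1. At the 38.6% GC of Ccr2 it lay at -0.25 in ortho IL-2 replicate 3 and at -0.21 in WT IL-2 replicate 1, and at 0.15 to 0.17 in the no IL-2 libraries. For Cxcr4 (46.1% GC) it lay at -0.05 in both ortho IL-2 replicate 3 and WT IL-2 replicate 1. For Ccr6 (49.3% GC) it lay at 0.02 in ortho IL-2 replicate 3 and 0.01 in WT IL-2 replicate 1. With this trend taken out as an offset in the fit, Ccr2 fell by 0.55 with ortho IL-2 and by 0.57 with WT IL-2, and Ccr7 fell by 1.21 with ortho IL-2 and by 1.26 with WT IL-2, all still called. The Ccr8 change with ortho IL-2 became 0.23 (adjusted p = 0.0570) and was no longer called.

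Genes that followed the members most closely were sought by the root mean square difference of log2 levels over the 9 libraries, each gene centred on its own mean. Nearest to Ccr7 were Pde2a at 0.0449 and Pnpla7 at 0.0571, and nearest to Cxcr4 were Rasa3 at 0.0345 and Kdm2b at 0.0451. Ccr2 had Jak2 at 0.0328 and Fam3c at 0.0334 beside it, and Ccr4 had Mcl1 at 0.0257 and Cd48 at 0.0269. For Cxcr3 these were Wipi1 at 0.0616 and Lcmt1 at 0.0634, and for Ccr8 Pex6 at 0.0483 and Ndufs5 at 0.0541. Ccr6 had no near neighbour, with Sec14l2 at 0.131 and Dnajc15 at 0.134. Among the members themselves Ccr2 and Cxcr4 were the closest pair at 0.128, and Ccr4 and Ccr7 the farthest at 0.802.

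Ccr2, Ccr4, Ccr8, Ccr9 and Cxcr5 all lie on mouse chromosome 9, and Ccr2 sits in a receptor cluster that also holds Ccr1, Ccr3, Ccr9, Cxcr6 and Xcr1 (Ccr2 itself at chr9:124101950-124113557, plus strand, GRCm38). Values of 6 tested protein-coding genes within 500 kb are given, Ccr2 included. Lztfl1, a regulator of protein traffic to cilia, changed by -0.70 with ortho IL-2 and -0.64 with WT IL-2, both called. Cxcr6, the receptor for CXCL16, changed by -0.29 with ortho IL-2 (adjusted p = 0.0183) and -0.30 with WT IL-2 (adjusted p = 0.0166). With the RPKM divisor as library size its values of -0.01 with ortho IL-2 and -0.08 with WT IL-2 were not called. Its ortho IL-2 call was also lost with the GC offsets (-0.15, adjusted p = 0.0926) and without ortho IL-2 replicate 3 (-0.23, adjusted p = 0.0772). Without no IL-2 replicate 1, neither its ortho IL-2 change (-0.25, adjusted p = 0.0754) nor its WT IL-2 change (-0.26, adjusted p = 0.0689) was called.

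**Figure D4:**
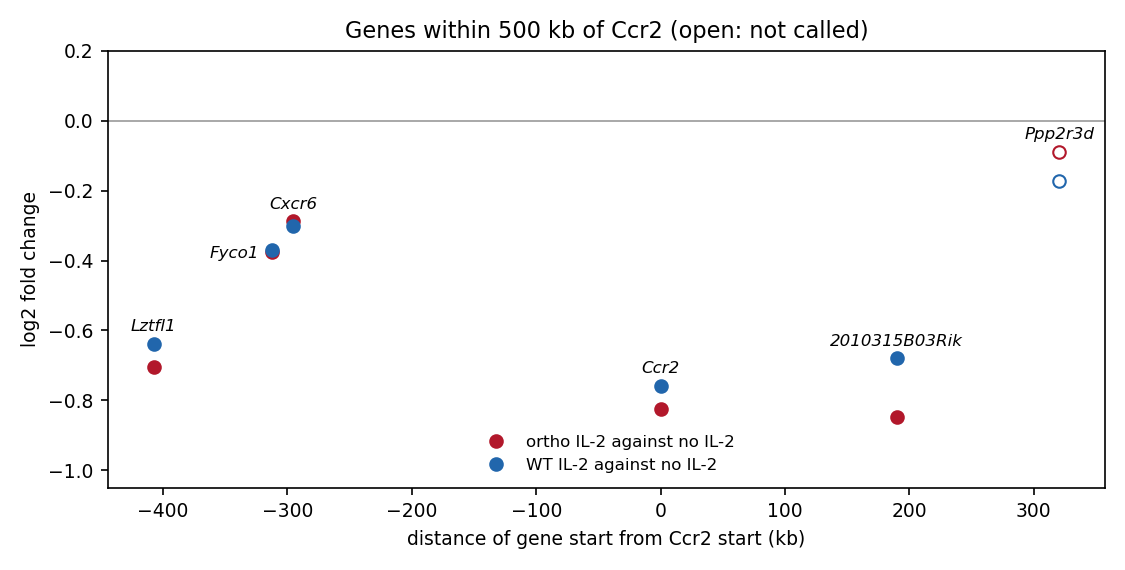
Log2 fold change of 6 tested genes within 500 kb of Ccr2, for ortho IL-2 and WT IL-2 against no IL-2. Each gene is drawn at the distance in kb of its lowest coordinate from that of Ccr2. For Lztfl1, Fyco1, 2010315B03Rik and Ppp2r3d, on the minus strand, this is the 3′ end. Filled points were called by edgeR and open points were not. Ccr2 and 2010315B03Rik lie lowest with Lztfl1, while Ppp2r3d lies closest to 0 and is not called.

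Beyond the 9 members, 9 other chemokine receptors were listed and 2 were tested, Cxcr2 and Cxcr6. Both were lower with ortho IL-2 (median log2 fold change -0.36) and with WT IL-2 (median -0.32), beside a median of 0.01 over all tested genes in both comparisons. Cxcr2, which is best known from neutrophils, averaged 3.54 TMM-scaled RPKM in ortho IL-2 libraries, 3.82 in WT IL-2 libraries and 4.80 in no IL-2 libraries. Neither was called with the RPKM divisor as library size, nor with the percentage of reads outside genes as covariate. Another 5 genes were listed as atypical receptors, a class named for binding chemokines without G protein signalling, and 1 was tested, Ccrl2. Ccrl2 changed by -0.35 with ortho IL-2 (edgeR, adjusted p = 0.0144) and by -0.53 with WT IL-2 (edgeR, adjusted p = 0.00183). With the RPKM divisor its values of -0.07 with ortho IL-2 and -0.31 with WT IL-2 were not called. Its ortho IL-2 call was also lost without ortho IL-2 replicate 1 (-0.30, adjusted p = 0.0565) or no IL-2 replicate 3 (-0.28, adjusted p = 0.0531).

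Of 38 chemokine ligand genes only 2 were tested, Ccl5 and Ccl9. Ccl9 had 6.49, 2.76 and 1.22 TMM-scaled RPKM in ortho IL-2 libraries, 4.62, 2.06 and 7.79 in WT IL-2 libraries, and a mean of 10.6 ± 4.36 in no IL-2 libraries. Its libraries scattered widely and overlapped between groups, and its change of -1.63 with ortho IL-2 (adjusted p = 0.0432) was lost on leaving out any of 4 libraries, ortho IL-2 replicates 2 and 3 and no IL-2 replicates 1 and 2. With the percentage of reads outside genes as covariate its sign turned, to 1.30 (adjusted p = 0.0933). Ccl5, an inflammatory chemokine, was not called with ortho IL-2 (-0.13) or WT IL-2 (-0.36).

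The machinery that carries receptor signals to movement was listed as 40 genes, of which 37 were tested. With ortho IL-2, 16 were higher, 7 lower and 14 not called (median 0.07). With WT IL-2, 14 were higher, 5 lower and 18 not called (median 0.10). Of all genes, 56.0% were called with ortho IL-2 (28.5% higher, 27.4% lower) and 47.9% with WT IL-2 (25.0% higher, 22.9% lower). Pik3r5, the regulatory subunit that ties PI3 kinase gamma to G proteins, averaged 14.2 TMM-scaled RPKM in ortho IL-2 libraries, 13.1 in WT IL-2 libraries and 6.59 in no IL-2 libraries, a log2 fold change of 1.11 with ortho IL-2 and 0.99 with WT IL-2. Tiam1, an exchange factor that activates Rac, rose by 0.64 with ortho IL-2 and 0.65 with WT IL-2, and Gnaq, a G protein alpha subunit of the Gq class, rose by 0.63 with ortho IL-2 and 0.69 with WT IL-2. Stk4, the kinase MST1 that mouse T cells need for normal migration, fell by 0.79 with ortho IL-2 and by 0.78 with WT IL-2. These 4 kept their calls in every alternative run, but the balance of the list moved with the settings: under the RPKM divisor, ortho IL-2 gave 27 higher and 1 lower and WT IL-2 gave 23 higher and 1 lower, on a scale where the median of all genes itself lay at 0.29 with ortho IL-2 and 0.22 with WT IL-2. With the GC offsets there were 13 higher and 11 lower for ortho IL-2 and 15 higher and 8 lower for WT IL-2. With the percentage of reads outside genes as covariate there were 4 higher and 2 lower for ortho IL-2 and 5 higher and 4 lower for WT IL-2. Of all genes, the divisor called 62.2% with ortho IL-2 and 51.6% with WT IL-2. The GC offsets called 58.5% with ortho IL-2 and 55.8% with WT IL-2. The covariate called 14.7% with ortho IL-2 and 19.9% with WT IL-2.

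Transcription factors known to act on receptor genes in T cells were listed as 16 genes, of which 14 were tested. In either comparison with no IL-2, 4 were higher, 6 lower and 4 not called, where 56.0% of all genes were called with ortho IL-2 and 47.9% with WT IL-2. Under the RPKM divisor, ortho IL-2 gave 8 higher and 4 lower, and WT IL-2 gave 7 higher and 4 lower. With the GC offsets these were 2 higher and 7 lower for ortho IL-2 and 4 higher and 7 lower for WT IL-2. With the percentage of reads outside genes as covariate, none was higher, with 4 lower for ortho IL-2 and 5 lower for WT IL-2. That covariate called 14.7% of all genes with ortho IL-2 and 19.9% with WT IL-2. For the divisor and the GC offsets the shares of all genes are those given above. Foxo1, which keeps Ccr7 transcribed in resting mouse T cells, averaged 59.5 TMM-scaled RPKM in ortho IL-2 libraries, 61.3 in WT IL-2 libraries and 106 in no IL-2 libraries, with log2 fold changes of -0.84 for ortho IL-2 and -0.80 for WT IL-2. Bcl6, which promotes Cxcr5 in follicular T cells, averaged 6.41 TMM-scaled RPKM in ortho IL-2 libraries, 7.44 in WT IL-2 libraries and 32.9 in no IL-2 libraries, with log2 fold changes of -2.36 for ortho IL-2 and -2.15 for WT IL-2. Stat5b, a transducer of the IL-2 signal, changed by -0.63 with ortho IL-2 and -0.67 with WT IL-2, and Rora, a factor of Th17 cells, changed by -0.59 with ortho IL-2 and -0.55 with WT IL-2. Foxo1, Bcl6, Stat5b and Rora were named for the smallest p in the list, and all 4 fell. Those called higher with WT IL-2 were Tbx21 (0.57, adjusted p = 0.0348 in edgeR), Runx3 (0.40), Batf (0.32) and Irf4 (0.23). Tbx21 rested on 32 to 211 reads per library. Its WT IL-2 call was lost with the GC offsets (0.37, adjusted p = 0.171 in edgeR). It was also lost on leaving out any 1 WT IL-2 library (adjusted p = 0.0581 to 0.075 in edgeR). The same held without no IL-2 replicate 1 (0.43, adjusted p = 0.142 in edgeR) or 3 (0.47, adjusted p = 0.108 in edgeR). No change of a receptor was tied to any of these factors by a test.

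Markers of other cells were low. Of 12 myeloid and dendritic markers, 1 (Itgam) was tested. The list summed to 10.6 to 11.1 CPM in ortho IL-2 libraries, 9.86 to 12.2 CPM in WT IL-2 libraries and 14.4 to 16.2 CPM in no IL-2 libraries. Itgam itself changed by -0.62 with ortho IL-2 and -0.60 with WT IL-2, both called. Over all 9 libraries Itgam had 2372 reads, Mpeg1 488, Cd68 391 and Lyz2 6, and Ccr2 had 52421. Of 8 B cell markers, 1 (Cd79b) was tested, with list sums of 5.84 to 6.68 CPM in ortho IL-2 libraries, 5.24 to 5.94 CPM in WT IL-2 libraries and 6.24 to 6.88 CPM in no IL-2 libraries. Of 8 CD8 and NK cell markers, 2 (Cd8b1 and Prf1) were tested, with list sums of 22.4 to 24.2 CPM with ortho IL-2, 20.9 to 24.1 CPM with WT IL-2 and 17.6 to 18.0 CPM without IL-2. Prf1 rose by 1.36 with ortho IL-2 and 1.23 with WT IL-2, both called. Cd8b1 was called in neither comparison (0.16 with ortho IL-2 and 0.14 with WT IL-2). Of 10 erythroid, platelet and stromal markers, 1 (Pecam1, which T cells also express) was tested, with list sums of 218 to 228 CPM with ortho IL-2, 221 to 226 CPM with WT IL-2 and 278 to 292 CPM without IL-2, and Gp9 was at 0 in all libraries. Their part in the receptor levels was not tested.

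How firmly each receptor call stands varied over the 22 alternatives. Ccr2, Ccr4, Ccr7 and Cxcr4 were called in all 22 with ortho IL-2 and in all 22 with WT IL-2, as was Cxcr3 with WT IL-2. With ortho IL-2 the log2 fold changes spanned -1.28 to -0.79 for Ccr7, -0.84 to -0.50 for Cxcr4, -0.88 to -0.53 for Ccr2 and 0.51 to 0.82 for Ccr4. With WT IL-2 they spanned -1.33 to -0.94 for Ccr7, -0.81 to -0.54 for Cxcr4, -0.82 to -0.54 for Ccr2 and 0.52 to 0.78 for Ccr4. No member that was called changed its direction in any alternative.

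**Figure D5:**
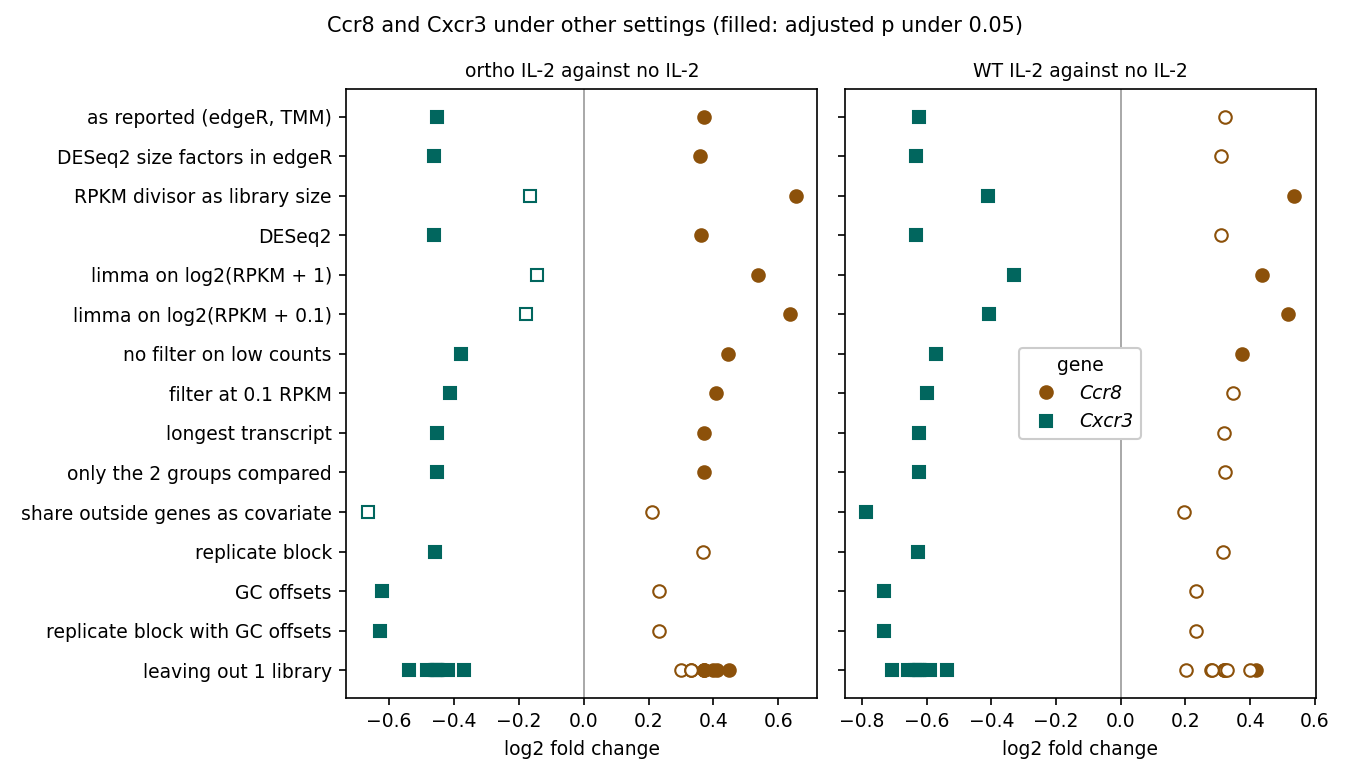
Log2 fold change of Ccr8 (circles) and Cxcr3 (squares) under each alternative, for ortho IL-2 against no IL-2 on the left and WT IL-2 against no IL-2 on the right. Filled points have an adjusted p under 0.05 and open points do not. Ccr8 stays above 0 and Cxcr3 below 0 throughout, but Ccr8 is open in 7 of 22 alternatives with ortho IL-2 and in 17 of 22 with WT IL-2.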

How the data were processed

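Each deposited table gives raw read counts and RPKM for 31682 RefSeq transcripts, per the file headers. The authors' RPKM equal the counts divided by transcript length and by a number that is single for each library (the RPKM divisor) and that also holds reads outside the transcripts taken. The tools used upstream, with mm10 as the build, include TopHat2 with Bowtie2, bedtools 2.25.0, SAMtools 0.1.8 and edgeR, per the submitters' processing notes. What each did, the annotation release, the counter and whether strand was used is not given in the sources used here.

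Genes that reached an RPKM of 1 in 3 or more of the 9 libraries were tested on the counts in edgeR 4.0.16 (quasi-likelihood, R 4.3.3), TMM scaling and group means as terms over all 9 libraries, two-sided, with Benjamini-Hochberg adjustment over 10702 genes and a threshold of 0.05. SE and 95% intervals come from that test, and levels are TMM-scaled RPKM computed from the counts. On simulated counts for WT IL-2 against no IL-2 (10702 genes, 200 changed), 76% of 1.5-fold and 93% of 2-fold changes were recovered. The real comparison called 47.9% of all genes, a far larger share, so these rates need not hold there. Alternatives included limma 3.58.1 on log2(RPKM + 1) and log2(RPKM + 0.1), DESeq2 1.42.0 and loess offsets on GC content (span 0.3, GC known for 99.6% of genes). Named genes were all 9 members, every other tested chemokine receptor (1 is not reported here), up to 4 genes with the smallest p per list, the 2 genes most like each member, and genes within 500 kb of Ccr2. The members and lists were chosen with earlier results of these data known. Positions are those of GRCm38, and promoter sequences those of RefSeq on GRCm38.p6.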

Additional observations from a re-analysis of the deposited data

How the results depend on the processing

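Of the changes against no IL-2, those of Ccr2, Ccr4, Ccr7 and Cxcr4 kept direction and call in all 22 alternatives, and none of the members was called between ortho and WT IL-2 in any. With no filter on low counts, 8 members were called with WT IL-2 in place of 5, Ccr8, Ccr9 and Cxcr5 being added, where 27.6% of 19806 genes were called. The scale of the deposited RPKM, which keeps the reads outside genes in the divisor, moved the median of all genes by 0.22 (divisor in edgeR) or 0.18 (limma, +1) with WT IL-2 and by 0.28 or 0.24 with ortho IL-2. With WT IL-2 it gave 4630 genes higher and 895 lower with the divisor, 4459 and 867 with limma on log2(RPKM + 1), and 4495 and 839 with log2(RPKM + 0.1), in place of 2675 and 2447. With ortho IL-2 these were 5707 and 946, 5599 and 922, and 5605 and 914, in place of 3054 and 2936. Thus 83.8% of calls were higher with WT IL-2 under the divisor in place of 52.2%, and 85.8% in place of 51% with ortho IL-2. A covariate for the percentage of reads outside the transcripts taken, which moves with the groups, was also tried. With it, WT IL-2 gave 1217 higher and 913 lower and ortho IL-2 925 and 648. The cause was not tested.

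The Ccr8 change with ortho IL-2 was 0.21 with the covariate (adjusted p = 0.673) and 0.37 with a replicate block (adjusted p = 0.0576). Cxcr3 with ortho IL-2 was -0.14 (adjusted p = 0.271) and -0.18 (adjusted p = 0.272) in limma and -0.66 (adjusted p = 0.102) with the covariate. Same-numbered libraries correlated at -0.77 to 0.571 over 9 pairs, beside -0.737 to 0.693 for the other pairs between groups. Of 9 libraries, 4 had their own number in their best match from the other groups, and 0 did so in both other groups. These correlations use deviations from each group's own mean of few libraries. They cannot decide whether a replicate number marks a shared culture or mouse. The fit with the replicate block called 4788 genes with WT IL-2, 5652 with ortho IL-2 and 0 between them, with 5 members called in each comparison against no IL-2. Depth limits Ccr6, Ccr9 and Cxcr5.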

Other observations

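Among receptors too low for the filter used above, 4 were tested when genes with RPKM of at least 0.1 in 3 libraries were admitted, which brought the genes tested to 13866. That run called 49.4% of all genes with ortho IL-2 and 40.8% with WT IL-2. Ccr3, a receptor of eosinophils and Th2 cells, had 0.521, 0.567 and 0.545 TMM-scaled RPKM in ortho IL-2 libraries, 0.683, 0.564 and 0.689 in WT IL-2 libraries, and 1.13, 0.999 and 0.897 in no IL-2 libraries. All stimulated libraries lay below the no IL-2 libraries. Its log2 fold change was -0.87 with ortho IL-2 (edgeR, adjusted p = 0.000772) and -0.63 with WT IL-2 (edgeR, adjusted p = 0.00555). Cx3cr1, the fractalkine receptor of cytotoxic and myeloid cells, went the other way, at 1.17, 1.42 and 1.20 TMM-scaled RPKM in ortho IL-2 libraries, 1.31, 1.36 and 1.35 in WT IL-2 libraries, and 0.998, 0.961 and 0.896 in no IL-2 libraries. It rose by 0.43 with ortho IL-2 (edgeR, adjusted p = 0.0113) and by 0.51 with WT IL-2 (edgeR, adjusted p = 0.00497), though its exons overlap Gm33858 on the other strand. Cxcr5 changed by -1.08 with ortho IL-2 (edgeR, adjusted p = 0.0228) and by -1.53 with WT IL-2 (edgeR, adjusted p = 0.00589). Xcr1 did not pass the threshold with ortho IL-2 (-0.51, edgeR, adjusted p = 0.0678) or WT IL-2 (-0.41, edgeR, adjusted p = 0.137). With no filter on low counts, Ccr9 changed by -1.50 with ortho IL-2 (edgeR, adjusted p = 0.0362) and by -1.47 with WT IL-2 (edgeR, adjusted p = 0.0465), on 4 to 20 reads per library. The run without a filter called 34.8% of 19806 genes with ortho IL-2 and 27.6% with WT IL-2. A low filter can admit a gene through the group in which it is high. All filters were set on the deposited RPKM, which lie below the TMM-scaled RPKM given here. On the TMM scale Ccr3, Cx3cr1, Xcr1 and Cxcr5 lay above 0.1 in every library, Cxcr5 with a lowest value of 0.104. In deposited RPKM, Cxcr5 was at 0.0729 in WT IL-2 replicate 2. Cxcr5 rested on 9 to 49 reads per library. These values describe those genes alone.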
